A study of Mus musculus with 16 samples.

Results

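Malat1, Neat1, Miat, Snhg11, Mir124a-1hg, Kcnq1ot1 and Cdr1 are 7 genes whose transcripts are described as noncoding and, for most of them, as retained in the nucleus. They were taken by gene symbol from the authors' deposited tables, which compare RNA on tagged polysomes with total tissue RNA in mouse prelimbic cortex. Of the 7 genes, 6 were matched among 39017 gene rows, and Kcnq1ot1 was not analysed here. The label was not measured in these data, because no nuclear fraction was compared with a cytoplasmic one. Among the 6, GENCODE M21 types Malat1, Neat1, Miat and Mir124a-1hg as long intergenic noncoding RNAs and types Snhg11 and Cdr1 as protein coding.

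The 16 libraries came from C57BL/6J mice, an inbred strain, and all groups shared the same viral scheme. AAV-IV-GFPL10, which gives a GFP-tagged ribosomal protein, was placed in the prelimbic cortex (PL), and CAV-Cre, a canine adenovirus that carries Cre recombinase, was placed in 1 axon target. The targets were the ventral tegmental area (VTA), the nucleus accumbens (NAc) and, in the amygdala, its basolateral part (BLA), so tagging was limited to PL cells that this virus reached from the target. The immunoprecipitate (IP) held polysomes captured with anti-GFP beads, and the Input held total RNA of the PL around them. There were 3 IP and 3 Input libraries for PL-NAc, as many for PL-BLA, and 2 and 2 for PL-VTA, and sets of 3 values run from PL-NAc through PL-BLA to PL-VTA. The sources used here give no age, sex or pooling of animals. Nothing in the labels states that replicates were separate animals, so p-values here measure nothing beyond the spread among these libraries, and that spread may be technical.

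Each RNA in this group has a described role. Malat1 gathers in nuclear speckles, which store splicing factors, and Neat1 is the scaffold of paraspeckles. Miat, also called Gomafu, is a neuronal RNA with repeats that splicing factor 1 binds, Snhg11 is a host of small nucleolar RNA that is abundant in neurons, and Mir124a-1hg is the precursor transcript of the neuronal microRNA miR-124. The Cdr1 locus is known for a circular RNA from its opposite strand, Cdr1as, which holds many miR-7 sites and is described as mainly cytoplasmic. Ribosomes translate mRNA in the cytoplasm, and nuclear or untranslated RNA is commonly depleted from polysome preparations.

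Sequence features for which these RNAs are known are shown for 3 of them, from the GRCm38 genome and, for miR-7, from RefSeq (GRCm38.p6). The first set shows why the strand matters at Cdr1: the miR-7 seed (bases 2 to 8, in capitals) and a stretch of the strand opposite to Cdr1 at chrX:61184288-61184413, plus strand, with the reverse complement of that seed, GTCTTCC, in capitals.
mmu-miR-7a-5p: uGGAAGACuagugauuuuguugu
mmu-miR-7b-5p: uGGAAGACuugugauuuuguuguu
Cdr1 locus, opposite strand: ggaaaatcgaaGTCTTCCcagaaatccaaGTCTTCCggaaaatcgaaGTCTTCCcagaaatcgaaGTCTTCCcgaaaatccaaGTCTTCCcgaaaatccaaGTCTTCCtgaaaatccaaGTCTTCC
The 2 microRNAs share 1 seed, and the printed stretch holds 7 matches to it. Over the 1554 bases of the Cdr1 exon, GTCTTCC occurred 79 times on the opposite strand and 0 times on the Cdr1 strand, and 72 of the 78 gaps between neighbouring starts were 18 bases. Of 7498 GENCODE M21 transcripts of 1400 to 1700 bases, 13.9% held GTCTTCC, with at most 4 copies.

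The second set shows the 3′ region of Malat1, where the nuclear RNA is known to end in a triple helix in place of a poly(A) tail. It lies at chr19:5795918-5796089, minus strand, with the run of 12 A and the runs of 5 T in capitals.
Malat1, 3′ region: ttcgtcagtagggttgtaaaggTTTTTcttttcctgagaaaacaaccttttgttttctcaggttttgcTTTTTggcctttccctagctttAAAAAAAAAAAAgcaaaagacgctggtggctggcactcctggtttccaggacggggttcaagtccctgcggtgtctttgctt
The A run began at base 6674 of the 6983-base transcript and ended 298 bases before its end, and 19.5% of 2549 transcripts of 6000 to 8000 bases held an A run of that length. The third stretch, at chr5:112216752-112216901, minus strand, shows 3 of the TACTAAC repeats of Miat in capitals.
Miat, repeats: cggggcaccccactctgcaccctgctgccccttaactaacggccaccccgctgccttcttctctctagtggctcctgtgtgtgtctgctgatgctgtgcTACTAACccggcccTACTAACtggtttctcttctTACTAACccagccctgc
TACTAAC occurred 6 times in the 9163-base Miat transcript, between bases 4941 and 5629, and 0 times on its other strand. Of 935 transcripts of 8000 to 10000 bases, 19.9% held it, with at most 3 copies. These matches describe the letters only.

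The genes lie on 5 chromosomes (GRCm38, GENCODE M21). Malat1 (ENSMUSG00000092341) is a single exon at chromosome 19, 5795690 to 5802672, minus strand, and Neat1 (ENSMUSG00000092274) lies 22035 bases away at 5824708 to 5845478 on the same strand. Miat (ENSMUSG00000097767) is at chromosome 5, 112213228 to 112229395, minus strand, and Snhg11 (ENSMUSG00000044349) at chromosome 2, 158375638 to 158386145, plus strand. Mir124a-1hg (ENSMUSG00000097545) is at chromosome 14, 64587331 to 64593961, plus strand, and its microRNA hairpin lies in exon 4 of the longest transcript, at 64590657 to 64590741. Cdr1 (ENSMUSG00000090546) is a single exon at chromosome X, 61184005 to 61185558, minus strand. In the annotated models the longest open frame took 99.8% of the Cdr1 transcript (517 codons). It took 1.82% of Neat1 (126 codons), 2.75% of Malat1 (64 codons), 3.21% of Miat (98 codons), 4.55% of Snhg11 (89 codons) and 9.58% of Mir124a-1hg (131 codons). The Cdr1 model of 1554 bases holds almost nothing outside its frame. Its share thus follows from the annotation and is not comparable with those of the other genes.

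The first comparison asked how much of each RNA was on the tagged polysomes relative to the tissue. All 6 were lower in the IP in all 3 projections by the DESeq2 Wald test of the authors' deposited tables (Benjamini-Hochberg adjusted p below 0.05). Among all genes tested, 21.7%, 20.2% and 10.5% were lower. The 6 were chosen with earlier results of these data known. Their calls and medians therefore describe the chosen genes and are not independent support for a depletion. The median log2 fold change of the 6, IP over Input, was -4.34, -3.71 and -2.81 in the authors' deposited tables, beside -0.03, -0.02 and 0.02 over all genes tested. The IP is a bulk sample set against whole tissue, so fewer cells of a type and less RNA per cell or per ribosome cannot be told apart. Values per library are not analysed here, so each value below is the authors' estimate with its standard error (SE).

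One property of these estimates bears on every size below. The standard errors in each deposited table pile up at a ceiling (0.438, 0.419 and 0.451), with 1006, 1029 and 1046 genes within 1% of it. Such a ceiling is what a normal prior on the fold change gives, and a prior pulls fold changes toward 0. Whether the authors used one was read from these values only. Each log2 fold change is therefore given as deposited and also with that pull inverted, called unshrunken here. Inverting it kept each gene's test against Input and changed only its size.

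Malat1 was the most abundant of the 6 per kb of exon and had the lowest log2 fold change in PL-NAc and PL-BLA. Its mean normalized count over IP and Input libraries was 19676, 24581 and 25965 in the authors' deposited tables, which ranked it 57, 35 and 28 among all genes. The log2 fold change was -6.25 (SE 0.15), -5.93 (SE 0.21) and -3.73 (SE 0.40) in the authors' deposited tables, or 1.31%, 1.64% and 7.52% of Input. The IP was thus lower in each projection, and least so, as deposited, in PL-VTA. Unshrunken, the same values were -6.45 (SE 0.16), -6.35 (SE 0.22) and -5.07 (SE 0.54), or 1.14%, 1.23% and 2.98% of Input. The adjusted p of the DESeq2 Wald test was listed as 0 (Wald statistic -40.9), 3.8e-176 and 8.4e-19 in the authors' deposited tables. Ordered from the lowest fold change up, Malat1 stood at place 7 of 17998 genes, 3 of 17668 and 6 of 15440.

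Neat1, the paraspeckle RNA next to Malat1, was far less abundant. Its mean normalized count was 108, 107 and 140 in the authors' deposited tables. Relative to Input it stood at -4.37 (SE 0.32), -3.83 (SE 0.29) and -3.11 (SE 0.38), with DESeq2 adjusted p of 7.2e-41, 7.1e-37 and 6e-14 in the authors' deposited tables. Neat1 was lower in each IP, at places 14, 16 and 17 from the lowest fold change. The unshrunken values were -5.19 (SE 0.38), -4.46 (SE 0.34) and -4.08 (SE 0.51). They imply IP means of only 5.78, 9.26 and 15.6 normalized counts, so they rest on few reads. Frmd8, the next gene at 4223 bases from Neat1, had -1.28, -1.02 and -1.12 in the authors' deposited tables.

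Miat was low in abundance, and its fold changes lay nearer to 0 than those of Neat1. Its mean normalized count was 185, 170 and 217 in the authors' deposited tables. On the log2 scale the IP was at -3.47 (SE 0.24), -3.24 (SE 0.23) and -2.48 (SE 0.31), with DESeq2 adjusted p of 4.7e-44, 2e-43 and 1.5e-13 in the authors' deposited tables. Unshrunken, it was -3.80 (SE 0.27), -3.53 (SE 0.25) and -2.88 (SE 0.36). Miat was at 9.0%, 10.6% and 17.9% of Input as deposited.

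Snhg11 was measured with the smallest standard errors of the 6. Its mean normalized count was 2486, 2500 and 3053 in the authors' deposited tables. The log2 fold change was -3.23 (SE 0.09), -3.24 (SE 0.11) and -2.52 (SE 0.17), with DESeq2 adjusted p of 1.5e-283, 4.9e-200 and 1.6e-49 in the authors' deposited tables. The unshrunken values, -3.27 (SE 0.09), -3.29 (SE 0.11) and -2.62 (SE 0.17), were close to these. PL-NAc and PL-BLA lay within 0.01 of each other as deposited, and PL-VTA lay nearer to 0. The 2 flanking genes were not called: Snhg17, another noncoding host of small nucleolar RNA, had -0.39, -0.28 and -0.08, and Ralgapb, a GTPase-activating subunit, had -0.09, -0.05 and 0.08 in the authors' deposited tables.

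Mir124a-1hg had the smallest differences from PL-VTA of the 6. Its mean normalized count was 154, 121 and 150 in the authors' deposited tables. Its log2 fold change was -4.30 (SE 0.28), -4.20 (SE 0.30) and -3.93 (SE 0.37), with DESeq2 adjusted p of 1.9e-52, 3.9e-42 and 1.8e-24 in the authors' deposited tables. In PL-VTA that put it at place 4 of 15440 genes, with a lower deposited value than Malat1. Unshrunken, it was -4.85 (SE 0.31), -4.95 (SE 0.36) and -4.98 (SE 0.46), or 3.47%, 3.23% and 3.18% of Input. These values imply IP means of only 10.3, 7.53 and 9.24 normalized counts, so the percentages rest on few reads. Its flanking genes were Msra, a methionine sulfoxide reductase, at 0.24, 0.39 and 0.11, and Kif13b, a kinesin, at -1.35, -0.97 and -0.85 in the authors' deposited tables.

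Cdr1 had the widest spread of deposited values between projections. Its mean normalized count was 1048, 1200 and 1167 in the authors' deposited tables. IP over Input it stood, in log2, at -4.58 (SE 0.13), -3.58 (SE 0.23) and -1.53 (SE 0.45), with DESeq2 adjusted p of 2.7e-263, 3.6e-52 and 0.00476 in the authors' deposited tables. The RNA was thus at 4.19%, 8.33% and 34.5% of Input, and its place from the lowest fold change went from 13 and 19 to 384. The PL-VTA standard error lay beside the ceiling, so the size there is poorly fixed: unshrunken, Cdr1 was -4.69 (SE 0.13), -3.91 (SE 0.25) and -2.71 (SE 0.79), and the other solution of the same equation in PL-VTA was -3.54 (SE 1.03). With that solution its difference between PL-NAc and PL-VTA was -1.14, nearer to 0 than the -1.38 of Malat1, so the order of the 2 genes is not fixed. The call in PL-VTA was lost with all standard errors multiplied by 1.5 (Wald adjusted p 0.177) and in a Wald test of a change beyond 2-fold (adjusted p 1), while the other 5 genes kept theirs in both.

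The library chemistry does not mark the strand, so reads of Cdr1 and of RNA from its opposite strand cannot be told apart. In GENCODE M21, exons of C230004F18Rik, the gene of the opposite strand, cover all 1554 bases of the Cdr1 exon. The values above are those of the Cdr1 row and were not assigned to the circular RNA. C230004F18Rik, with means of 194, 207 and 202, had 0.31 (SE 0.18), 0.15 (SE 0.18) and 0.49 (SE 0.29) and was not called in any projection in the authors' deposited tables. In these gene models every base of Cdr1 is shared, so the reads of the Cdr1 row, with means of 1048, 1200 and 1167, were of shared bases. They may come from either strand. The authors' annotation and strand setting are not given, so whether the C230004F18Rik row also received such reads is not known. The C230004F18Rik row therefore does not show whether RNA opposite to Cdr1 was depleted.

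**Figure D1:**
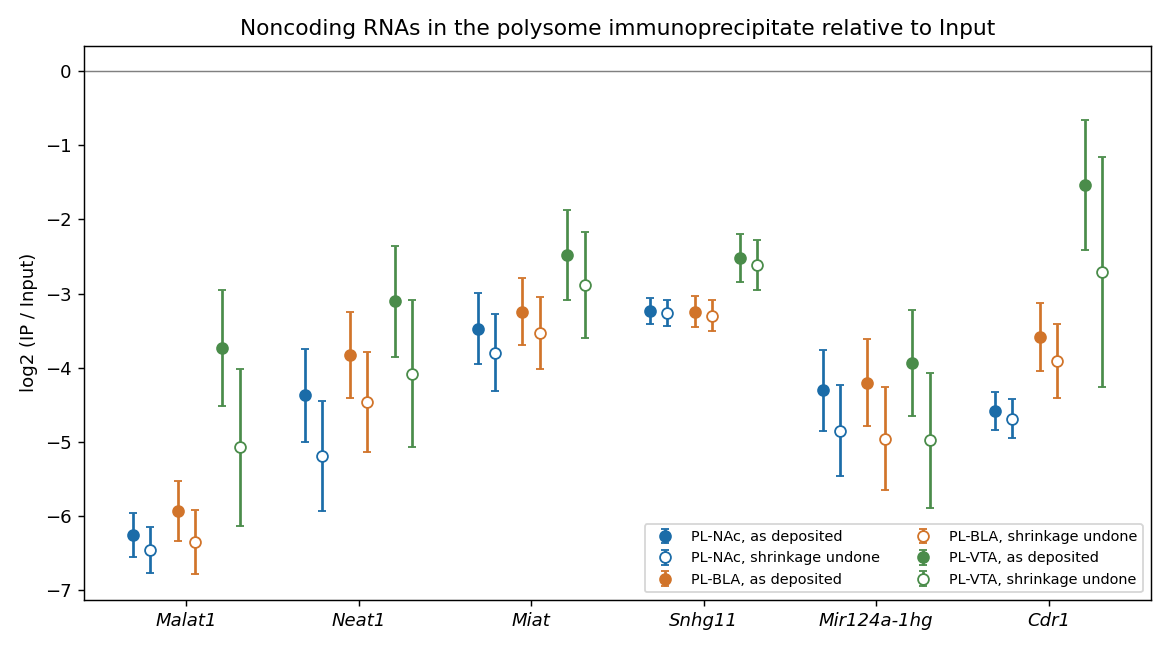
Log2 ratio of IP to Input (vertical axis, no unit) for the 6 genes in PL-NAc, PL-BLA and PL-VTA. Filled points are the authors' deposited values and open points the unshrunken values, bars are 95% intervals, and all 36 points lie under 0, with the PL-VTA points of Malat1 and Cdr1 moving most when unshrunken.

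Levels can be compared between genes only per length. The mean count and the unshrunken fold change together imply a level in Input and in IP, if both had equal numbers of libraries as the labels give. Per kb of exon, Malat1 implied 5572, 6955 and 7222 normalized counts in Input and 63.6, 85.3 and 215 in IP. Cdr1 followed at 1298, 1448 and 1302 in Input and 50.4, 96.5 and 199 in IP. Snhg11 came next at 529, 532 and 616 in Input and 55.0, 54.3 and 101 in IP. Across these 3 RNAs, picked for their Input level, the implied IP level ran from 50.4 to 63.6, from 54.3 to 96.5 and from 101 to 215. That range was narrower than in Input, but over all 6 genes it ran from 0.278 to 63.6, from 0.446 to 96.5 and from 0.753 to 215. The PL-VTA level of Cdr1 uses 1 of the 2 solutions for a size that is poorly fixed. Mir124a-1hg implied 61.8, 48.6 and 60.6 per kb in Input and 2.14, 1.57 and 1.92 in IP. Miat implied 37.1, 33.7 and 41.1 in Input and 2.67, 2.92 and 5.58 in IP. Neat1 was lowest, at 10.1, 9.84 and 12.8 in Input and 0.278, 0.446 and 0.753 in IP. The order in Input was the same in each projection: Malat1, Cdr1, Snhg11, Mir124a-1hg, Miat, Neat1. It rests on the length used, which was all annotated exon bases of a gene, 20771 for Neat1 over 4 transcripts. Which transcript forms were present, and how evenly the libraries captured each RNA, was not measured, and a shorter form would raise a level per kb. Values per library would be needed to test neighbours in that order.

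**Figure D2:**
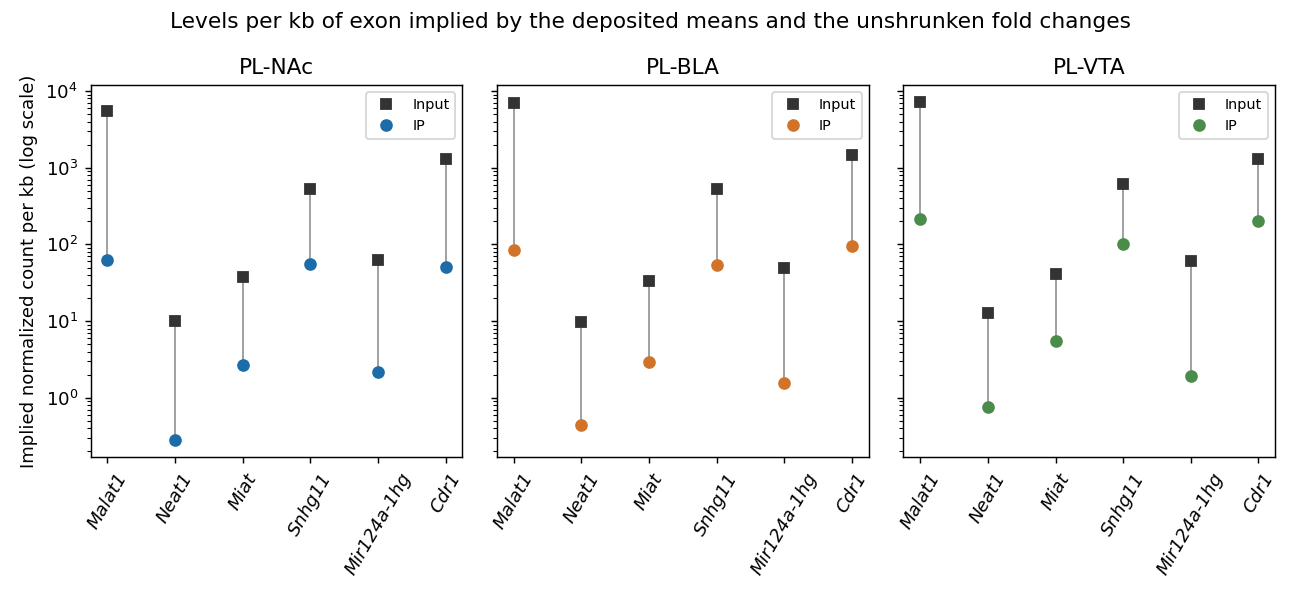
Implied normalized counts per kb of exon (vertical axis, log scale) in Input (squares) and IP (circles) for the 6 genes in each projection; a line joins the 2 values of a gene and its length is the unshrunken fold change. Input levels run from 5572 for Malat1 to 10.1 for Neat1 in PL-NAc.

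The second comparison asked whether the depletion of a member differed between projections, with 18 tests over 6 genes and 3 pairs, each a two-sided Wald z adjusted by the Benjamini-Hochberg method over all genes with a p in both tables. PL-NAc was lower than PL-BLA for 1 of the 6, Cdr1, and for 0.751% of all genes (0.705% unshrunken). Its difference was -0.99 (95% interval -1.51 to -0.47, Wald adjusted p 0.0201) as deposited and -0.78 (-1.34 to -0.22, Wald adjusted p 0.258) unshrunken. For the other 5 the Wald adjusted p was 0.9997. The interval of the difference ran from -0.26 to 0.28 for Snhg11, from -0.82 to 0.19 for Malat1, from -0.89 to 0.42 for Miat, from -0.91 to 0.70 for Mir124a-1hg and from -1.40 to 0.30 for Neat1.

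PL-NAc was lower than PL-VTA for 3 of the 6, Malat1, Snhg11 and Cdr1, and for 1.28% of all genes (1.07% unshrunken). PL-BLA was also lower than PL-VTA for Malat1, Snhg11 and Cdr1, and for 1.49% of all genes (1.34% unshrunken). Both pairs share the PL-VTA libraries. For Snhg11 the differences were -0.71 (-1.08 to -0.34, Wald adjusted p 0.0115) from PL-NAc and -0.72 (-1.10 to -0.33, Wald adjusted p 0.0126) from PL-BLA, and unshrunken they were -0.65 (Wald adjusted p 0.0432) and -0.68 (Wald adjusted p 0.0326). These calls held unshrunken, unlike those of the other members, but both were lost with standard errors multiplied by 1.5 (Wald adjusted p 0.822 and 0.703).

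Malat1 had larger differences as deposited, whose calls were lost unshrunken. They were -2.52 (-3.35 to -1.68, Wald adjusted p 1.1e-06) from PL-NAc and -2.20 (-3.08 to -1.32, Wald adjusted p 0.0001) from PL-BLA as deposited. Unshrunken, they were -1.38 (-2.49 to -0.28, Wald adjusted p 0.332) and -1.28 (-2.42 to -0.14, Wald adjusted p 0.448). Cdr1 likewise went from -3.04 (Wald adjusted p 2.7e-08) to -1.98 (-3.55 to -0.41, Wald adjusted p 0.324) against PL-NAc, and from -2.05 (Wald adjusted p 0.00284) to -1.20 (-2.82 to 0.42, Wald adjusted p 0.9999) against PL-BLA. A difference of the Malat1 or Cdr1 depletion from PL-VTA was thus not called unshrunken. With the deposited values and standard errors multiplied by 1.5, Malat1 and Cdr1 kept their calls between PL-NAc and PL-VTA (Wald adjusted p 0.0251 and 0.00561) and lost those between PL-BLA and PL-VTA (0.117 and 0.407).

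Neat1, Miat and Mir124a-1hg were not called in either pair with PL-VTA. Their differences from PL-NAc were -1.27 (-2.25 to -0.29, Wald adjusted p 0.267), -0.99 (-1.77 to -0.22, Wald adjusted p 0.278) and -0.37 (-1.27 to 0.53, Wald adjusted p 0.9999). From PL-BLA they were -0.72 (-1.67 to 0.23), -0.76 (-1.52 to -0.003) and -0.27 (-1.20 to 0.67), with Wald adjusted p of 0.991, 0.606 and 0.9998. PL-VTA had 2 libraries of each kind, and its median standard error, over genes averaging 50 counts or more, was 0.219, beside 0.124 and 0.129.

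**Figure D3:**
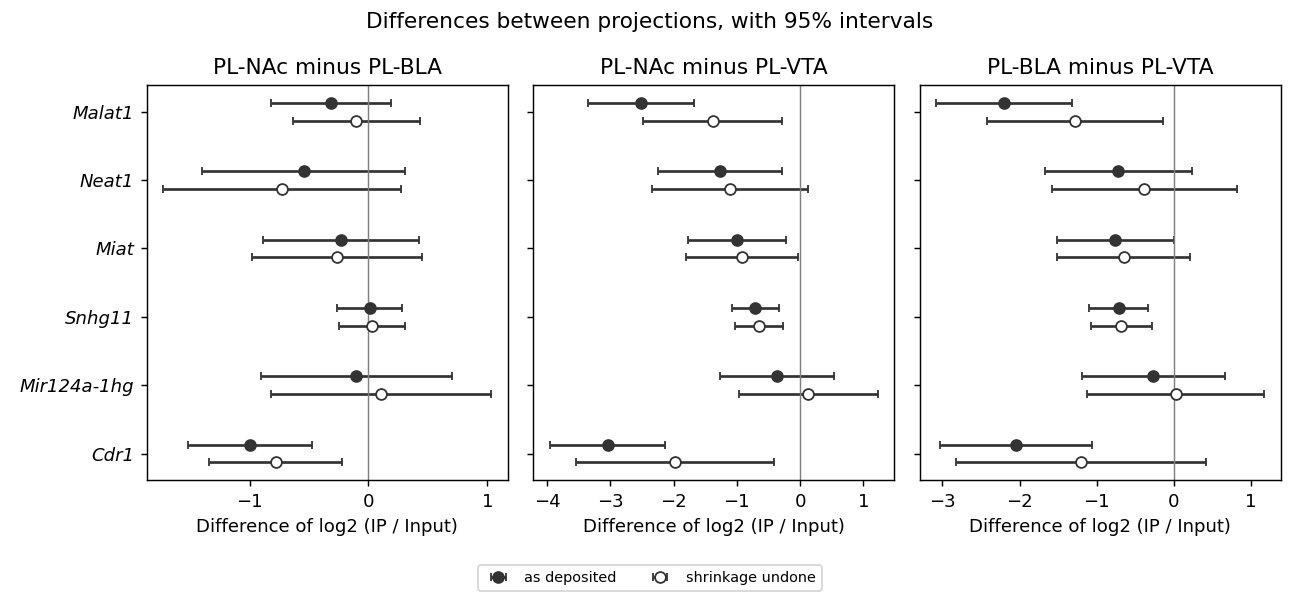
Difference of log2 (IP / Input) between 2 projections (horizontal axis, log2 units) for each gene and pair, with 95% intervals not adjusted for the number of tests. Filled points use the deposited values and open points the unshrunken ones: Malat1 against PL-VTA moves from -2.52 to -1.38 for PL-NAc, and Snhg11 from -0.71 to -0.65.

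Markers of glia, blood vessels and inhibitory neurons were mostly lower in the IP too, and their part in these results was not tested. Of 10 markers each, astrocyte markers were lower for 10, 9 and 10, oligodendrocyte markers for 10, 10 and 10, microglia markers for 10, 10 and 9 and inhibitory neuron markers for 9, 10 and 8, in the authors' deposited tables. Their medians were -2.11, -1.39 and -1.49 for astrocytes, -3.22, -2.43 and -2.49 for oligodendrocytes, -2.60, -2.05 and -1.95 for microglia and -1.61, -1.66 and -1.85 for inhibitory neurons. Endothelial and mural markers were lower for 9, 9 and 4 of 10, with medians of -1.54, -1.40 and -0.88. Summed over each list in that order, the mean normalized counts were 25322 to 30455, 32423 to 41360, 2001 to 2460, 15246 to 16418 and 884 to 1225 over the 3 tables, and no marker of these lists was at 0. Among the inhibitory neuron markers, Sst was called higher in PL-NAc, at 0.26. Excitatory neuron markers had 9, 8 and 3 of 10 higher and 0, 1 and 2 lower, with medians of 0.62, 0.55 and 0.23. The viral scheme selects cells by axon target, and the labels do not name the cell class that was tagged. Slc17a7, the vesicular glutamate transporter, was at 0.62, 0.75 and 0.16, the last not called. In PL-VTA the called markers split, with Fezf2 higher at 2.94 and Neurod6 lower at -0.82. Beside all these counts, 21.7%, 20.2% and 10.5% of all genes tested were lower and 21.4%, 20.8% and 11% higher. Because glial and mitochondrial transcripts set the sign in which the tables were read, their decrease is no finding. The medians of the 6 members lay below those of all 5 of these lists in each projection, which describes the lists and is not a test.

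mRNA of the mitochondrial genome, which cytosolic ribosomes do not translate, was the nearest in size to Malat1. All 8 tested were lower in each projection, with medians of -6.21, -5.09 and -3.19 in the authors' deposited tables and -6.50, -5.73 and -4.34 unshrunken. By the distance of the 3 deposited fold changes, among 1151 genes with a mean of at least 50 and lower in all 3 projections, the 3 nearest to Malat1 were mt-Nd5 (distance 0.783), mt-Co1 (0.785) and mt-Nd1 (0.936), subunits of respiratory complexes. Nearest to Neat1 were the hemoglobin gene Hbb-bs (0.482), the noncoding 9530059O14Rik (0.600) and the selenium carrier Selenop (0.612). Nearest to Miat were Snhg11 (0.246), the interneuron gene Pvalb (0.282) and the microglial complement gene C1qc (0.304). Snhg11 had Dio2 (0.235), Nupr1 (0.239) and Miat (0.246), and Mir124a-1hg had the imprinted noncoding RNA Meg3 (0.579), Hbb-bs (0.665) and 9530059O14Rik (0.693). Cdr1 had no close match, with Hba-a1 first at 1.38, then Plekhf1 at 1.44 and Sdc4 at 1.45. Each distance rests on 3 values, and the projections' errors differ.

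Noncoding genes as a class did not share the size of the decrease. GENCODE long intergenic noncoding RNAs other than the members, with a mean of at least 50, had medians of -0.21, -0.14 and -0.03 in the authors' deposited tables. Among them 20 of 71, 22 of 76 and 8 of 79 were lower. These are shares of 28.2%, 28.9% and 10.1%, beside 24.6%, 23.4% and 12.2% of protein-coding genes at the same minimum mean. At least 4-fold lower in all 3 projections were 9 genes of noncoding types: Malat1, Neat1, Miat, Mir124a-1hg, Meg3, Rian, A330023F24Rik, Gm3764 and 9530059O14Rik. Malat1, Neat1, Miat and Mir124a-1hg are members, and Snhg11 is absent because it is typed protein coding. Taken projection by projection, 4.23%, 6.58% and 3.80% of the long intergenic noncoding RNAs other than the members were at least 4-fold lower. Of protein-coding genes other than the members, 2.98%, 1.52% and 1.20% were. Of the other listed nuclear noncoding RNAs, 6 of 12, 7 of 12 and 3 of 11 were lower and none was higher. Over all genes tested, 21.7%, 20.2% and 10.5% were lower and 21.4%, 20.8% and 11% higher. Meg3 was -4.60, -4.66 and -3.75, its imprinted neighbour Rian -2.51, -2.93 and -2.84, Ftx, of the X-inactivation centre, -1.70, -2.53 and -1.56, and Firre -2.32, -2.03 and -1.03, the last not called in PL-VTA, in the authors' deposited tables. Tug1, chosen after its values were seen as an abundant RNA of the list, was not called in any projection, at -0.03, -0.20 and 0.30.

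Hosts of small RNAs other than Snhg11 and Mir124a-1hg were called in both directions. Of 14 small nucleolar RNA hosts, 4, 3 and 1 were lower and 3, 2 and 1 higher, with medians of -0.03, -0.11 and 0.05. These shares lie near those of all genes tested, 21.7%, 20.2% and 10.5% lower and 21.4%, 20.8% and 11% higher. Snhg4 was higher at 1.90, 1.90 and 1.65, while Gas5 was lower at -0.64, -1.04 and -0.78, in the authors' deposited tables. Of 6 microRNA hosts, 4, 4 and 1 were lower and 1 was higher in each projection, with medians of -0.86, -0.87 and -0.39. A330023F24Rik, a host of miR-29, was lower at -2.80, -3.08 and -2.34, and Mir22hg was higher at 0.40, 0.47 and 0.52, in the authors' deposited tables. The 2 listed RNAs described as cytoplasmic split: 1700020I14Rik had -1.68, -1.81 and -1.69, and Dancr had 2.06, 2.17 and 1.13, all called.

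**Figure D4:**
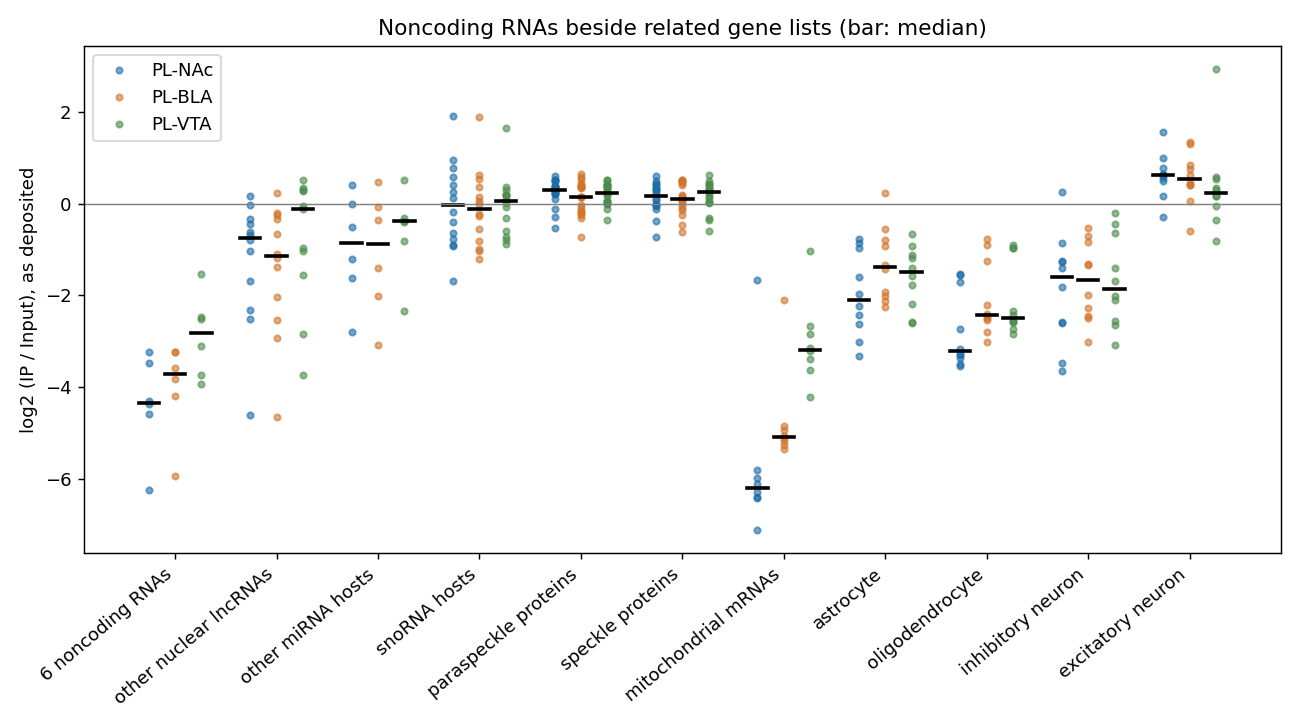
Deposited log2 (IP / Input) (vertical axis) of the 6 genes and of related gene lists in the 3 projections; each point is a gene that carried an adjusted p and each black bar a median. The 6 genes sit below the medians of the other noncoding lists, and the mRNAs of the proteins of speckles and paraspeckles sit near 0.

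mRNAs of paraspeckle and speckle proteins were higher more often than lower in each projection. The same held for protein-coding genes other than the members with a mean of at least 50, so this direction is not particular to the 2 lists. Among those genes, 3487 of 11326, 3375 of 11477 and 1593 of 11536 were higher, and 2791, 2687 and 1410 were lower. Of 20 mRNAs of paraspeckle proteins, the partners of Neat1, 10, 8 and 3 were higher and 1, 0 and 0 lower, with medians of 0.31, 0.15 and 0.24, among them Ewsr1 at 0.51, 0.54 and 0.53 and Hnrnpk at 0.39, 0.40 and 0.41 in the authors' deposited tables. Of all genes tested, 21.4%, 20.8% and 11% were higher. Of 18 speckle protein mRNAs, 9, 6 and 3 were higher and 2, 2 and 1 lower, with medians of 0.17, 0.11 and 0.25. Rnps1 was higher at 0.61, 0.52 and 0.42, and Pnn was lower at -0.73, -0.63 and -0.60, in the authors' deposited tables. Of 9 genes of Malat1 end processing and RNA methylation, 1, 3 and 1 were higher, 1 was lower in each projection and 7, 5 and 7 were not called. The methyltransferase gene Mettl16 was higher at 0.83, 0.68 and 0.72 and the RNase P subunit gene Rpp25 lower at -1.20, -0.95 and -1.30. Of 4 splicing factors described to bind Miat, 1 was higher in each projection and 1, 2 and 1 were lower. Qk was lower at -2.18, -1.91 and -1.67 and Sf1 higher at 0.67, 0.55 and 0.55, in the authors' deposited tables. A link of these values to Malat1 or Miat was not tested. For the counts of lower genes in these lists, the shares of all genes tested were 21.7%, 20.2% and 10.5%.

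Genes linked to the 2 microRNAs were described without a test between the lists. Of 8 genes of the miR-7 network, which holds textbook targets and also the noncoding 1700020I14Rik, 5, 5 and 3 were higher and 3, 2 and 1 lower, with medians of 0.39, 0.55 and 0.002. The insulin receptor substrate gene Irs2 was 0.38, 0.70 and 0.92, and the immediate early gene Fos was 0.87, 0.79 and -0.41, the last not called, in the authors' deposited tables. Of 10 miR-124 targets, 7, 7 and 3 were lower and none was higher, with medians of -0.87, -0.75 and -0.61, where 21.7%, 20.2% and 10.5% of all genes were lower. They include Sox9, at -0.96, -0.56 and -0.93, which is also on the astrocyte list, and Vim, an intermediate filament of glia, at -1.56, -1.32 and -1.19, in the authors' deposited tables. A list of genes of the domain that Kcnq1ot1 silences also held flanking genes. Of its 12 genes, 9, 9 and 6 were tested, with 4, 4 and 1 higher and 1, 1 and 2 lower. For these counts and those of the miR-7 network, the shares of all genes tested were 21.4%, 20.8% and 11% higher and 21.7%, 20.2% and 10.5% lower. Cdkn1c, a cell cycle inhibitor of that domain, was 2.24 and 2.28 in PL-NAc and PL-BLA and -1.26 in PL-VTA, all called, in the authors' deposited tables.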

How the data were processed

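Polysome-bound (IP) and total (Input) RNA of 16 samples in 6 groups were compared by the authors in 1 table for each of 3 projections, and groups follow the sample titles. STAR 2.3, featureCounts, DESeq2 and builds named mm10 and GRCm38 are given per the submitters' processing notes; the sources used here give no annotation, strand setting, filters or other versions. Libraries used SMARTer Ultra Low and Nextera XT kits, per the labels' protocols. Per the file headers, the deposited signal is a mean of normalized counts over the libraries of a comparison. The deposited log2 values are fold changes with standard errors; their sign was read as IP over Input because glial and mitochondrial transcripts were negative. Per the file headers, the deposited score is a Wald statistic. Each p-value and its Benjamini-Hochberg adjustment came from the authors. There was a p for 23202, 23343 and 22606 genes and an adjusted p for 17998, 17668 and 15440. Depth was read only from the summed means, 15437849 to 16520414 normalized counts.

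A gene was called at an adjusted p under 0.05. Differences between projections were two-sided Wald z tests adjusted over 21981, 21559 and 21613 genes. The unshrunken values invert a normal prior whose width was taken from the largest standard error, and the inversion was tested on simulated data. Positions, lengths and motifs came from GENCODE M21 (GRCm38), which matched 37607 gene identifiers, and microRNAs from RefSeq. Python 3.11.15, pandas 2.3.3, numpy 2.4.6, scipy 1.17.1 and matplotlib 3.10.9 were used. A count model, planned in case counts were present, was not used, since the tables hold comparisons. Named genes were the members, up to 4 genes of each of 18 lists with the best mean rank of the Wald p, the 3 nearest patterns to each member and the nearest gene with a p on each side; where fewer are printed, the rest are not described. The members and lists were chosen with earlier results of these data known. Alternatives were a mean of at least 50, adjustment over every gene with a p, a test beyond 2-fold, other centrings and standard errors multiplied by 1.5. The unshrunken values were added after seeing the data.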

Additional observations from a re-analysis of the deposited data

Results flagged for a closer look

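In 7 of 18 tests the fold change of a member differed between projections by the Wald z test, as deposited. Of all genes, 0.751% were lower in PL-NAc than in PL-BLA and 1.28% lower in PL-NAc than in PL-VTA. From PL-BLA to PL-VTA the share was 1.49%. Both pairs with PL-VTA share its libraries, so their calls are not independent. Cdr1 differed by -0.99 between PL-NAc and PL-BLA, by -3.04 between PL-NAc and PL-VTA and by -2.05 between PL-BLA and PL-VTA, each lower in the first. Malat1 differed by -2.52 between PL-NAc and PL-VTA and by -2.20 between PL-BLA and PL-VTA. Snhg11 differed by -0.71 between PL-NAc and PL-VTA and by -0.72 between PL-BLA and PL-VTA. With the shrinkage undone, Snhg11 kept both calls and the 5 differences of Malat1 and Cdr1 had Wald adjusted p from 0.258 to 0.9999. With standard errors multiplied by 1.5, Snhg11 lost both calls (Wald adjusted p 0.822 and 0.703), while Malat1 and Cdr1 kept theirs between PL-NAc and PL-VTA (0.0251 and 0.00561) and lost the other 3.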

How the results depend on the processing

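Of 126 member values against Input recomputed under an alternative, 124 kept their direction and call. The 18 unshrunken values among them did so by construction, because the inversion leaves each test against Input unchanged. Both exceptions were Cdr1 in PL-VTA, at -1.53 with standard errors times 1.5 and in the test beyond 2-fold. Of 102 differences between projections, 80 kept theirs, 14 lost a call, 2 gained one and 6 changed sign, none of the 6 called. As deposited, 1, 3 and 3 members were called for PL-NAc against PL-BLA, PL-NAc against PL-VTA and PL-BLA against PL-VTA. Of all genes, 0.751%, 1.28% and 1.49% were lower in the first projection of each pair, and 0.705%, 1.07% and 1.34% with the shrinkage undone. With the shrinkage undone the counts were 0, 1 and 1, also 1 and 1 for both pairs with PL-VTA under the other solution for Cdr1. With standard errors times 1.5 PL-NAc against PL-BLA and PL-BLA against PL-VTA fell to 0 calls, and PL-NAc against PL-VTA to 2, Malat1 and Cdr1, with Snhg11 lost. Centring on excitatory neuron markers, which shifts all values by 0.62, 0.55 and 0.23, gave 5 calls for PL-NAc against PL-VTA, adding Neat1 (-1.66) and Miat (-1.39). The sign changed for Snhg11 between PL-NAc and PL-BLA under that centring (-0.069) and for Mir124a-1hg unshrunken (0.10 for PL-NAc against PL-BLA, 0.13 for PL-NAc against PL-VTA and 0.023 for PL-BLA against PL-VTA, under both solutions for Cdr1). No paired analysis was possible because the tables hold comparisons and not libraries, so the replicate block and leave-one-out were not run. Neat1, Miat and Mir124a-1hg had means of 107 to 217, and the precision also depends on the spread: in PL-VTA the largest standard error of the 6 was that of Cdr1, 0.447 at a mean of 1167.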
